A study of Mus musculus with 8 samples.

Results

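Taz and the genes for cardiolipin synthesis and remodeling were followed across the cell types of the mouse heart, in WT and Taz-KO mice. The members were the 10 of 32285 genes in the count tables whose symbols are Taz, Crls1, Pgs1, Tamm41, Ptpmt1, Lclat1, Pla2g6, Cds2, Pnpla8 and Prelid1. Their symbols were matched by name. The rule uses no measured value, but the genes were picked with earlier results of these data known. The question was whether transcripts of the other cardiolipin enzymes differ when Taz is lost.

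Whole hearts of 4 wild-type (WT) and 4 Taz-knockout (Taz-KO) male mice aged 9 weeks were profiled by single-nucleus RNA-seq, with 1 library per mouse. The knockout allele was made in earlier work, and the part of Taz that it removes is not given in the sources used here. No other allele or treatment was named for either genotype. Mice are called by the numbers in their labels, WT replicates 4686, 4909, 5355 and 5356 and Taz-KO replicates 4685, 4910, 5300 and 5301, and series of values below follow this order. Nuclear UMIs were summed per mouse, over all barcodes or over the nuclei of a cell type, and are given as CPM, the counts per 1000000 UMIs of that sum.

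Cardiolipin is the signature phospholipid of the inner mitochondrial membrane, where it holds respiratory complexes and cristae in shape. It is built from phosphatidic acid by way of CDP-diacylglycerol and phosphatidylglycerol, and the new molecule is then remodeled: a phospholipase removes an acyl chain and an acyltransferase adds another, in heart mostly linoleic acid. Tafazzin, the product of Taz, carries out this second step by transacylation, and its loss causes Barth syndrome, in which monolysocardiolipin accumulates and the heart and skeletal muscle fail. Taz here is not Wwtr1, a transcriptional coactivator that shares the name.

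The 8 libraries held 20025456 to 348080773 UMIs, mitochondrially encoded ones included. Taz-KO replicates 4685 and 5301 were small, with 3492 and 5571 barcodes against 21190 to 36308 in the others. Mitochondrially encoded genes took 1.57% to 23.7% of the UMIs and were left out of the totals behind CPM, which ran from 19711730 to 272345523 UMIs over all barcodes. Of 169193 barcodes, 151394 were kept as nuclei, which is more than the study itself kept. The larger libraries kept up to 32677, more than the number of nuclei that the study states for a library. Not every kept barcode can thus be a separate nucleus, and nuclei are counted below as kept barcodes. Which of them hold a single nucleus was not tested. At most 1.05% of the barcodes of the smaller library of a pair occurred in the other. Clusters were named from marker genes as cardiomyocytes (30222 nuclei), fibroblasts (38031), endothelial cells (21210), macrophages (13108), pericytes (5278), mesothelial cells (2682), lymphatic endothelial cells (2092), smooth muscle cells (1361) and adipocytes (773), and 36421 nuclei stayed unnamed. When each nucleus was instead typed by its own markers, 307 of 3383 nuclei (Taz-KO replicate 4685) to 8371 of 32677 (Taz-KO replicate 4910) received a type in the libraries with the fewest and the most, and among typed nuclei 45.0% (4685) to 81.9% (5301) had the name of their cluster.

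Taz lies on the X chromosome (ENSMUSG00000009995, GRCm38 chrX:74281912-74290151, plus strand). It is a short gene of 8.24 kb, where the other members span 4.77 kb (Prelid1) to 135 kb (Lclat1). Its first 426 bases lie on top of the opposite strand's Dnase1l1 (chrX:74273217-74282337). Antisense overlaps with genes in the count tables were also present for Crls1 (Gm14104), Pgs1 (Dnah17), Ptpmt1 (Kbtbd4), Pla2g6 (Gm20420), Pnpla8 (Gm47096) and Prelid1 (Rab24 and Mxd3), whereas Tamm41, Lclat1 and Cds2 overlapped none. How reads from such overlaps were assigned by strand was not examined here. No member shared bases with another counted gene on its own strand.

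RefSeq start-site windows of 300 bases (GRCm38.p6) were matched for 9 of the 10 members, in 11 windows. The 3 members with the most separated genotypes in cardiomyocytes, Taz, Lclat1 and Crls1, follow on their own strand, 5′ to 3′, to place the transcripts that the results turn on. Capitals mark the GC box GGGCGG or the E-box CACGTG, each searched on both strands.
Taz (chrX:74282468-74282767, plus strand): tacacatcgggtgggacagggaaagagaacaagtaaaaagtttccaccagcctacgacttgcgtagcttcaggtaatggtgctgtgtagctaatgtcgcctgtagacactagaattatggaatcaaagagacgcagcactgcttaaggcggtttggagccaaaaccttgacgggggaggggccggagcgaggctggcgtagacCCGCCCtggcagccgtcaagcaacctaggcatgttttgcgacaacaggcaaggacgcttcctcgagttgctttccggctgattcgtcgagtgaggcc
Lclat1 (chr17:73107735-73108034, plus strand): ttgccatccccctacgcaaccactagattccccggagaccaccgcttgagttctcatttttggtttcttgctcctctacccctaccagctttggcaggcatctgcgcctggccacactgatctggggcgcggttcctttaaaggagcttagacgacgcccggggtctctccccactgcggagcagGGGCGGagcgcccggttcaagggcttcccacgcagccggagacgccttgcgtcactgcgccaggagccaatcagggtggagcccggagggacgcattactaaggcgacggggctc
Crls1 (chr2:132846416-132846715, plus strand): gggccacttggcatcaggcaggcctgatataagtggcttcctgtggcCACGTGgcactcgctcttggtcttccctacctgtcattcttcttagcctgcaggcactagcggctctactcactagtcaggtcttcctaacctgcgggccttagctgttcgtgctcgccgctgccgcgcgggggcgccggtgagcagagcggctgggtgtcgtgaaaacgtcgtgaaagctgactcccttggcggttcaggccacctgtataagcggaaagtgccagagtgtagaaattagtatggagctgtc

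The Taz and Lclat1 windows each held 1 GC box and the Crls1 window, the first of 2 for this gene, held 1 E-box. The Taz window lies inside the annotated gene, downstream of the first annotated start. Across the members a GC box occurred in 6 of 11 windows (35.7% of all 32851 windows) and an E-box in 2 (7.15% of all windows), those of Crls1 and Prelid1. The NRF1 element (GCGCA, any base, GCGC) occurred in 2 windows, those of Pgs1 and Cds2 (4.6% of all windows). TATAAA and the estrogen-related receptor element TCAAGGTCA occurred in 0 of 11 (13.6% and 0.423% of all windows). These are letter matches only, on motifs chosen after the values of the members were known.

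Taz transcripts were lower in Taz-KO hearts but were not absent. Over all barcodes, Taz measured 42.3, 43.7, 41.2 and 42.8 CPM in WT mice and 23.0, 32.5, 20.6 and 29.0 CPM in Taz-KO mice, on totals scaled with edgeR's TMM factors. The genotypes did not overlap, and WT mice were far closer to each other than Taz-KO mice were. The log2 fold change was −0.70 (95% interval −1.04 to −0.35, n = 4 and 4, edgeR adjusted p = 0.0307). Reads tag transcript ends and introns were counted, so these UMIs do not tell whether a functional transcript was left, and a tag outside the deleted part would check no label. Sums over whole hearts cannot tell apart fewer cells of a type from less RNA per cell. The levels rest on 30608 WT and 12604 Taz-KO UMIs. DESeq2 gave an adjusted p of 0.00350, but edgeR's call was lost without WT replicate 4686 (adjusted p = 0.0751), 4909 (0.0951), 5355 (0.0616) or 5356 (0.0638) and without Taz-KO replicate 4685 (0.0572) or 5300 (0.0785), at log2 fold changes of −0.71 to −0.59.

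In cardiomyocytes, the contractile cells in which Barth syndrome is most studied, Taz showed the same pattern. The levels were 54.9, 48.0, 53.7 and 57.5 CPM in WT and 39.8, 37.6, 23.0 and 35.6 CPM in Taz-KO mice. Every Taz-KO mouse lay below every WT mouse, with Taz-KO replicate 5300 the lowest. The log2 fold change was −0.66 (95% interval −1.05 to −0.27, adjusted p = 0.0292), and DESeq2 gave an adjusted p of 0.0126. The call was lost without WT replicate 4686 (adjusted p = 0.0628) or WT replicate 5355 (adjusted p = 0.0562), and when an ambient share was subtracted (log2 fold change −0.59, adjusted p = 0.0891).

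**Figure D1:**
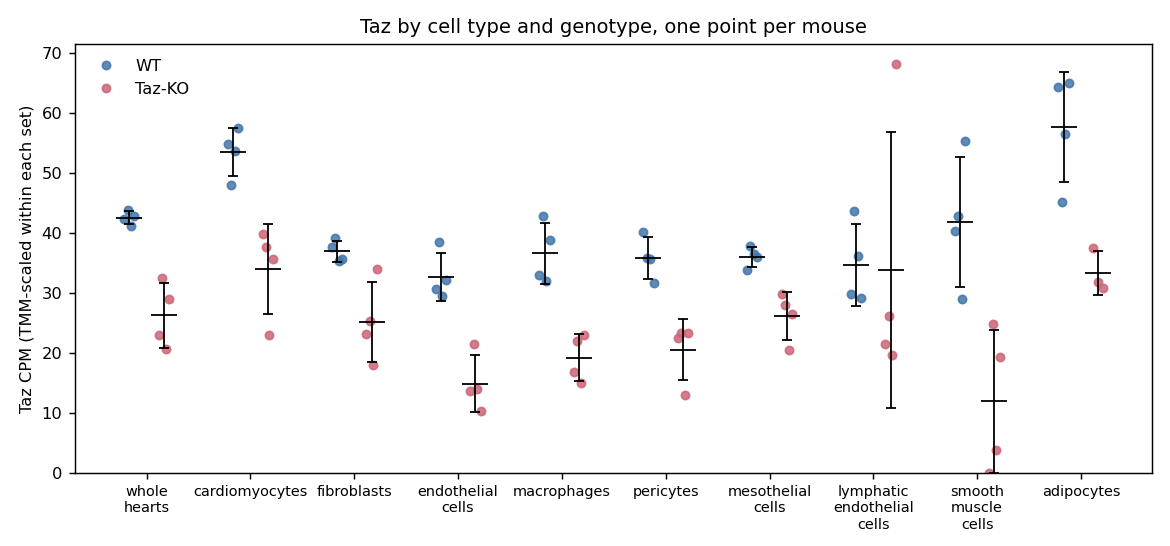
Taz in CPM (y axis, TMM-scaled within each set) for whole hearts and 9 cell types (x axis), with 1 point per mouse, WT in blue and Taz-KO in red, and black bars for the mean and SD. Taz-KO points lie below all WT points in every set other than lymphatic endothelial cells, where Taz-KO replicate 5301 reached 68.1 CPM on 8 UMIs.

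In the other cell types fewer UMIs stood behind each value, and edgeR called Taz in none of the 8. In fibroblasts it measured 37.6, 39.1, 35.3 and 35.7 CPM in WT and 23.1, 25.3, 18.0 and 34.0 CPM in Taz-KO mice (log2 fold change −0.58, adjusted p = 0.317). In endothelial cells it measured 30.6, 38.5, 29.5 and 32.1 CPM against 13.6, 21.5, 13.96 and 10.3 CPM (log2 fold change −1.06, adjusted p = 0.0917). In macrophages it measured 33.0, 42.8, 31.9 and 38.8 CPM against 16.7, 22.0, 15.01 and 23.0 CPM (log2 fold change −0.94, adjusted p = 0.168). The genotypes did not overlap in any of these 3 types, and DESeq2 called Taz in endothelial cells (adjusted p = 0.00396) and macrophages (adjusted p = 0.0181).

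The remaining types gave fitted log2 fold changes of −0.72 in adipocytes, −0.89 in pericytes, −0.50 in mesothelial cells, −1.30 in smooth muscle cells and −0.42 in lymphatic endothelial cells. In lymphatic endothelial cells the genotypes overlapped and the plain means went the other way, 33.4 ± 5.86 CPM in WT and 34.4 ± 24.5 CPM in Taz-KO mice (SD, n = 4 each). Adjusted p-values of edgeR for Taz in these 5 types were 0.504 or higher. Taz-KO replicate 4685 had 0 Taz UMIs in its smooth muscle nuclei, so this fold change rests on 2 to 61 UMIs in the other Taz-KO mice. Taz was thus fitted lower in 9 of 9 cell types, with 8 at an unadjusted edgeR p below 0.05 and 1 at an adjusted p below 0.05.

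The size of the Taz difference was compared between cell types within each mouse, with every one of the 70 ways to split the 8 mice as the reference. On the log2(CPM + 1) scale, exact two-sided permutation tests found that the change in cardiomyocytes minus that in endothelial cells was 0.51 (p = 0.143), minus that in macrophages 0.31 (p = 0.171) and minus that in fibroblasts −0.05 (p = 0.857). After Benjamini-Hochberg adjustment over the 3 tests the p-values were 0.257, 0.257 and 0.857. With nuclei typed by their own markers the differences were 0.02, −0.13 and 0.88 (permutation p = 0.914, 0.4 and 0.771, adjusted p = 0.914 each). Those to macrophages and fibroblasts thus changed sign. No difference between cell types in the Taz change passed the test, and the smallest unadjusted p that 4 against 4 mice can give is 0.0286. After adjustment over the 3 tests, a difference to 1 cell type alone could not have fallen below 0.05. The tests thus cannot decide on such a lone difference.

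In WT mice, levels of Taz outside cardiomyocytes and adipocytes lay close to those of the barcodes with the fewest UMIs in each library, and in Taz-KO mice most lay above them. On plain CPM, WT mice measured 31.8 to 38.5 CPM on average in the 7 other types and 34.9 ± 5.64 (SD, n = 4) in the lowest-UMI barcodes, the 10% of barcodes of each library with the fewest UMIs. Taz-KO mice measured 13.8 ± 5.79 CPM in those barcodes, against 11.1 CPM in smooth muscle cells, 15.1 in endothelial cells, 19.4 in macrophages, 21.1 in pericytes, 25.6 in fibroblasts, 26.1 in mesothelial cells and 34.4 in lymphatic endothelial cells on average. The smallest barcode of a library held 500 to 6522 UMIs, so these are no sample of empty droplets, and how far free RNA sets the Taz level of a cell type was not tested. 

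Among the members, Taz was the 1 of 10 called by edgeR in whole hearts (edgeR called 5.9% of 22486 genes, 2.25% as lower and 3.66% as higher in Taz-KO) and the 1 of 10 called in cardiomyocytes (15.1% of 18507 genes, 6.43% as lower and 8.67% as higher). Taz is the gene that the genotype names, and edgeR called no other member in either set. DESeq2 called 1 member, Taz, in whole hearts (11.7% of all genes) and 2 in cardiomyocytes, Taz and Lclat1 (19.4% of all genes). At an unadjusted edgeR p below 0.05 the members were 2 in whole hearts and 3 in cardiomyocytes, namely Taz and Crls1 in both and Lclat1 in cardiomyocytes, beside 21.4% and 28.5% of all genes. Genotypes did not overlap for 2 members in whole hearts (14.2% of all genes) and for 3 in cardiomyocytes (20.6% of all genes). The median log2 fold change of the members was 0.00 in whole hearts and 0.01 in cardiomyocytes, beside 0.02 and −0.01 over all genes tested.

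**Figure D2:**
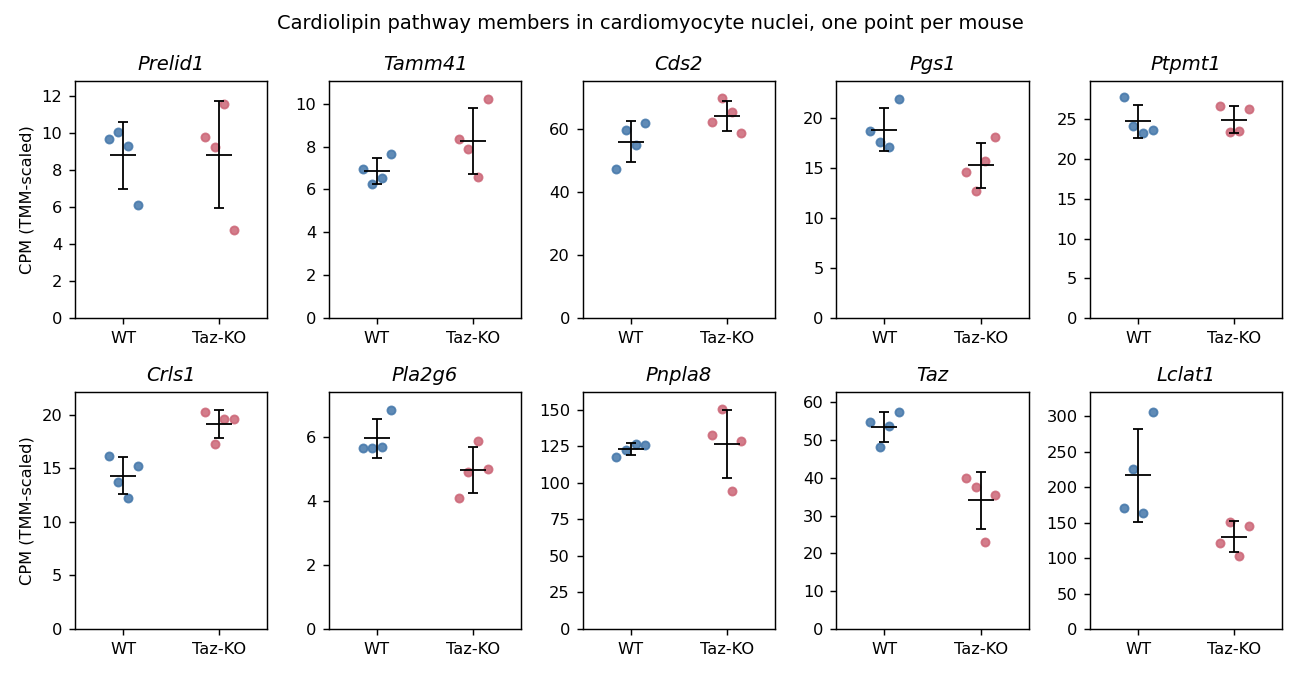
CPM of the 10 members in cardiomyocyte nuclei (y axes, TMM-scaled, each from 0), with 1 point per mouse, WT in blue and Taz-KO in red, and black bars for the mean and SD. Taz and Lclat1 separate the genotypes downwards and Crls1 upwards, while the other 7 overlap.

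The first members of the pathway bring phosphatidic acid to the inner membrane and activate it. Prelid1 carries phosphatidic acid across the intermembrane space. It ranged from 6.14 to 10.1 CPM in the cardiomyocytes of WT mice and from 4.75 to 11.6 CPM in those of Taz-KO mice, with a log2 fold change of 0.02 (95% interval −0.57 to 0.60). Tamm41, the mitochondrial CDP-diacylglycerol synthase, ranged from 6.27 to 7.66 CPM in WT and from 6.56 to 10.2 CPM in Taz-KO mice (log2 fold change 0.26, 95% interval −0.17 to 0.68, adjusted p = 0.440). Cds2, a CDP-diacylglycerol synthase of the endoplasmic reticulum, ranged from 47.2 to 61.8 CPM in WT and from 58.6 to 69.7 CPM in Taz-KO mice (log2 fold change 0.20, 95% interval −0.12 to 0.51, adjusted p = 0.425). With 1 mouse left out, the log2 fold change ran from 0.15 to 0.37 for Tamm41 and from 0.12 to 0.25 for Cds2. None of Prelid1, Tamm41 and Cds2 separated the genotypes on TMM-scaled CPM. On plain CPM Tamm41 did, with 6.43 to 6.74 CPM in WT and 7.90 to 9.18 CPM in Taz-KO mice, every Taz-KO mouse being higher.

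Pgs1 makes phosphatidylglycerol phosphate from CDP-diacylglycerol, the committed step, and Ptpmt1 removes the phosphate. Pgs1 measured 18.6, 17.6, 17.0 and 21.8 CPM in WT and 14.6, 12.7, 15.7 and 18.0 CPM in Taz-KO cardiomyocytes. On this TMM-scaled CPM only Taz-KO replicate 5301 reached into the WT range. On plain CPM it was replicate 5300 instead, with 12.7 to 18.9 CPM in Taz-KO and 17.1 to 18.4 CPM in WT mice. The log2 fold change of −0.30 (95% interval −0.66 to 0.05) had an edgeR adjusted p of 0.252. Ptpmt1 stayed between 23.3 and 27.9 CPM in all 8 mice, with a log2 fold change of 0.01 (95% interval −0.29 to 0.30), the tightest interval among the members in cardiomyocytes.

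Crls1, cardiolipin synthase, joins phosphatidylglycerol and CDP-diacylglycerol into new cardiolipin. In cardiomyocytes it measured 16.2, 13.7, 12.2 and 15.2 CPM in WT and 20.3, 17.2, 19.6 and 19.6 CPM in Taz-KO mice. All 4 Taz-KO mice lay above all 4 WT mice. The log2 fold change of 0.42 (95% interval 0.08 to 0.75) had an unadjusted p of 0.0185 and an adjusted p of 0.0902, and so did not pass the threshold. Over all barcodes the levels were 18.1, 18.2, 16.8 and 15.6 CPM in WT and 26.3, 20.9, 23.9 and 18.4 CPM in Taz-KO mice (log2 fold change 0.38, adjusted p = 0.156). No alternative processing brought its adjusted p below 0.05 in cardiomyocytes, where it ranged from 0.0690 to 0.252.

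In cardiomyocytes neither phospholipase of the pathway passed the test. Pla2g6 and Pnpla8 are calcium-independent phospholipases that can release acyl chains from mitochondrial phospholipids. Pla2g6 ranged from 5.64 to 6.86 CPM in WT and from 4.09 to 5.88 CPM in Taz-KO cardiomyocytes (log2 fold change −0.24, 95% interval −0.68 to 0.19, adjusted p = 0.480). Pnpla8 ranged from 118 to 126 CPM in WT and from 94.5 to 150 CPM in Taz-KO cardiomyocytes (log2 fold change 0.04, 95% interval −0.33 to 0.41, adjusted p = 0.920).

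Lclat1, which encodes the acyltransferase ALCAT1, adds acyl chains to lysocardiolipin in a route apart from tafazzin. In cardiomyocytes it measured 171, 226, 164 and 306 CPM in WT and 122, 152, 104 and 145 CPM in Taz-KO mice. The genotypes did not overlap, but WT mice varied widely, and WT replicate 5356 stood highest. The log2 fold change of −0.73 (95% interval −1.23 to −0.23) had an adjusted p of 0.0516 with edgeR and of 0.0213 with DESeq2. It lay on either side of the threshold across 17 alternatives, passing in 7 of them, among them without WT replicate 4686 (adjusted p = 0.0495) and without WT replicate 5355 (adjusted p = 0.0386). Without WT replicate 5356 the log2 fold change was −0.54 (adjusted p = 0.0881). Over all barcodes the genotypes overlapped, with 103, 138, 101 and 167 CPM in WT and 79.8, 117, 80.3 and 107 CPM in Taz-KO mice (log2 fold change −0.40, adjusted p = 0.301). There the log2 fold change without WT replicate 5356 was −0.26 (edgeR adjusted p = 0.557).

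**Figure D3:**
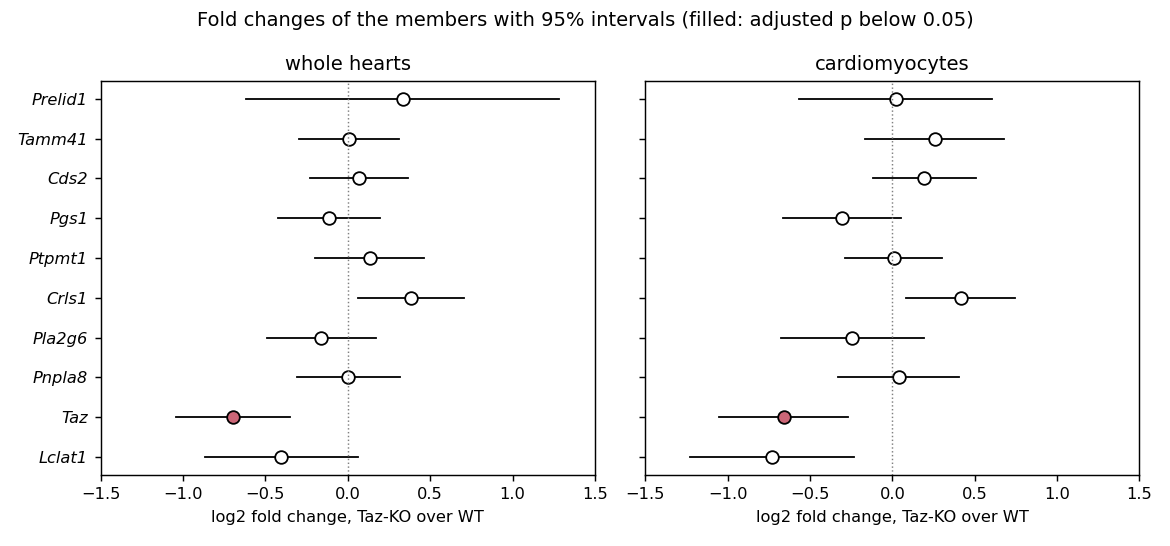
Log2 fold changes of the members, Taz-KO over WT (x axes), over all barcodes (left) and in cardiomyocytes (right), with 95% intervals as lines and filled circles where edgeR's adjusted p was below 0.05. Taz is filled in both panels, and the intervals of Crls1 in both and of Lclat1 in cardiomyocytes exclude 0 without passing the adjusted threshold.

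None of the 10 members was called as higher in Taz-KO mice by edgeR in whole hearts (3.66% of all genes) or cardiomyocytes (8.67%). The same held in the rest of the 9 cell types (0% to 0.49% of all genes called, in either direction). DESeq2 called none as higher in whole hearts or cardiomyocytes either (11.7% and 19.4% of all genes called, in either direction). At these shares 10 genes may hold none called as higher, so the count says little of the members. Crls1 was the 1 member higher at an unadjusted edgeR p below 0.05. A p that misses the threshold does not show that a level was unchanged, and the upper ends of the 95% intervals in cardiomyocytes ranged from 0.05 (Pgs1) to 0.75 (Crls1) on the log2 scale among the members other than Taz and Lclat1.

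Cardiomyocyte nuclei fell into 7 clusters. Shares of clusters 5 and 9 did not overlap between genotypes, those of the other clusters did, and no test was run. Cluster 5 held 40.4% to 47.4% of a WT mouse's cardiomyocyte nuclei and 16.8% to 22.4% of a Taz-KO mouse's, while cluster 9 held 7.32% to 10.6% and 22.9% to 30.5%. Taz-KO replicate 4685 had only 44, 46 and 59 nuclei in clusters 5, 6 and 9, with 27, 24 and 29 Crls1 UMIs. Within clusters 5, 6 and 9 the means of Taz, Lclat1 and Crls1 differed in the same direction as in all cardiomyocytes, on plain CPM and given without a test. Taz measured 51.9 ± 4.16 in WT and 32.6 ± 5.26 CPM in Taz-KO mice in cluster 5, 52.0 ± 1.58 and 32.6 ± 4.42 CPM in cluster 6, and 52.8 ± 2.49 and 39.1 ± 9.24 CPM in cluster 9 (SD, n = 4 each). Lclat1 measured 222 ± 49.7 and 151 ± 15.9 CPM in cluster 5, 191 ± 39.1 and 135 ± 20.5 CPM in cluster 6, and 199 ± 59.3 and 135 ± 13.7 CPM in cluster 9. For both genes the genotypes overlapped in cluster 9 only of these 3. Crls1 measured 13.4 ± 1.71 and 18.4 ± 4.30 CPM in cluster 5, 13.9 ± 0.643 and 23.0 ± 5.14 CPM in cluster 6, and 13.8 ± 2.17 and 19.2 ± 3.35 CPM in cluster 9, and the genotypes did not overlap in cluster 6.

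The cardiomyocyte nuclei carried the 7 cardiomyocyte markers at a summed 47791 to 65474 CPM in WT and 37472 to 55900 CPM in Taz-KO mice. Fibroblast markers were also present in them, with the 6 summing to 882 to 4454 CPM in WT and 267 to 3284 CPM in Taz-KO mice, and none of the 6 was at 0. The 4 smooth muscle markers summed to 12.4 to 51.3 CPM in WT and 56.7 to 237 CPM in Taz-KO mice, and the 6 B lymphocyte markers to 20.9 to 27.8 CPM in WT and 12.2 to 16.6 CPM in Taz-KO mice. The genotypes did not overlap in either of these lists, which went in opposite directions. Mitochondrially encoded UMIs made up 4.81% to 16.3% of cardiomyocyte UMIs in WT and 0.562% to 11.9% in Taz-KO mice. The part of these differences in the values of the members was not tested.

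Outside cardiomyocytes edgeR called 0 of the 10 members in fibroblasts (0.335% of all genes), endothelial cells (0.49%) and macrophages (0.239%). DESeq2 called 0 in fibroblasts (1.95% of all genes) and 1, Taz, in endothelial cells (1.79%) and in macrophages (1.21%). At an unadjusted edgeR p below 0.05 there was 1 member in each of the 3 types, in each case Taz, beside 9.64%, 7.73% and 6.62% of all genes. Taz is the gene that the genotype names, so this count says nothing of the other members, none of which was below that p. On TMM-scaled CPM genotypes did not overlap for 2 members in fibroblasts, Taz and Tamm41 (5.85% of all genes). They did not overlap for 1, Taz, in endothelial cells (5% of all genes) and macrophages (4.3%). On plain CPM Tamm41 did overlap in fibroblasts, with 9.26 to 11.0 CPM in WT and 7.87 to 9.76 CPM in Taz-KO mice. In fibroblasts Tamm41 was fitted at a log2 fold change of −0.32 (adjusted p = 0.615), opposite in sign to its value in cardiomyocytes, a difference that was not tested.

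In the 5 rarer types edgeR and DESeq2 called 0 members each. The share of all genes called by edgeR was 0% in adipocytes, where 610 genes had an unadjusted p below 0.05, 0.0871% in lymphatic endothelial cells, 0.13% in mesothelial cells, 0.157% in pericytes and 0.0452% in smooth muscle cells. For DESeq2 the shares were 0.153%, 0.296%, 0.562%, 0.274% and 0.147% in the same order. At an unadjusted edgeR p below 0.05 there was 1 member, Taz, in each type other than lymphatic endothelial cells, where there were 0. The shares of all genes were 7.17% in adipocytes, 5.53% in lymphatic endothelial cells, 7.28% in mesothelial cells, 4.79% in pericytes and 3.16% in smooth muscle cells. On TMM-scaled CPM genotypes did not overlap for 2 members in adipocytes, Taz and Pnpla8 (8.47% of all genes). They did not overlap for 2 in smooth muscle cells, Taz and Lclat1 (3.63%). In mesothelial cells (4.85%) and pericytes (3.55%) this held for Taz alone, and in lymphatic endothelial cells for 0 (4.06%). On plain CPM Crls1 also did not overlap in mesothelial cells, narrowly, with 34.8 to 56.1 CPM in WT and 56.2 to 89.7 CPM in Taz-KO mice. Pnpla8 in adipocytes measured 270, 243, 248 and 288 CPM in WT mice and 238, 222 and 99.9 CPM in Taz-KO replicates 4910, 5300 and 5301 (log2 fold change −0.42, 95% interval −1.02 to 0.19, adjusted p = 0.842). Lclat1 in smooth muscle cells rested on 1 and 0 UMIs in Taz-KO replicates 4685 and 5301. Tamm41 and Pla2g6 did not pass the filter on low counts in adipocytes and smooth muscle cells, so 8 members were tested there. Adipocytes rested on 4 WT and 3 Taz-KO mice.

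Fitted directions were alike across the 9 cell types for 3 members. Taz and Lclat1 were fitted lower in Taz-KO mice in 9 of 9 types, Lclat1 between −0.86 in smooth muscle cells and −0.03 in lymphatic endothelial cells. Crls1 was fitted higher in 9 of 9 types, between 0.08 in adipocytes and 0.72 in lymphatic endothelial cells. The plain means went the other way for Lclat1 in lymphatic endothelial cells (71.1 CPM in WT and 74.0 CPM in Taz-KO mice) and for Crls1 in smooth muscle cells (19.5 and 16.9 CPM). The types come from the same 8 mice and share the free RNA of a library, so these are not independent repeats. In the lowest-UMI barcodes Crls1 measured 20.4 ± 0.742 in WT and 28.4 ± 7.0 CPM in Taz-KO mice, whereas Lclat1 measured 82.7 ± 19.2 and 92.1 ± 32.7 CPM (SD, n = 4 each).

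In WT mice Taz and Lclat1 stood high in cardiomyocytes, whereas Crls1, Prelid1 and Tamm41 stood low there. These are plain CPM and a description, with no test, since the cells were sorted into types by their own transcripts, though the members took no part in the clustering. Taz was highest in adipocytes (55.0 ± 7.58 CPM) and cardiomyocytes (51.2 ± 2.75 CPM, SD, n = 4), whose ranges overlapped each other. The other types followed in the order smooth muscle cells, fibroblasts, macrophages, mesothelial cells, pericytes, lymphatic endothelial cells and endothelial cells (31.8 ± 3.74 CPM), with each pair of neighbours overlapping.

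**Figure D4:**
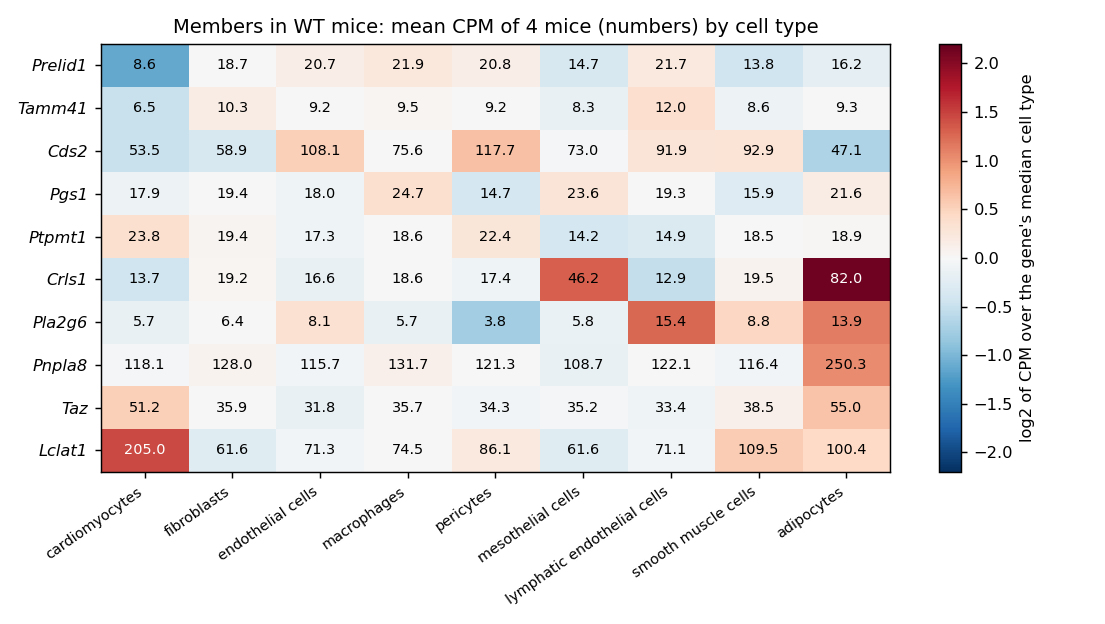
Mean CPM of each member in 4 WT mice (numbers) by cell type (columns), coloured by the log2 ratio to the median cell type of the same gene. Red (above the median) is strongest for Crls1 in adipocytes (82.0), then for Lclat1 in cardiomyocytes (205) and Crls1 in mesothelial cells (46.2), and blue (below it) for Prelid1 is strongest in cardiomyocytes (8.56).

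Lclat1 reached 205 ± 47.2 CPM in cardiomyocytes, above all mice of the next type, smooth muscle cells (110 ± 9.45 CPM). Crls1 was at 13.7 ± 1.5 CPM in cardiomyocytes, below every mouse of the endothelial type next above it, and at 82.0 ± 28.2 CPM in adipocytes and 46.2 ± 10.3 CPM in mesothelial cells, both of which lay above the next type, smooth muscle cells (19.5 ± 7.75 CPM). Prelid1 (8.56 ± 2.30 CPM) and Tamm41 (6.55 ± 0.139 CPM) had their lowest mean level in cardiomyocytes, each overlapping the type above. Ptpmt1 had its highest mean level there (23.8 ± 2.94 CPM), overlapping the next.

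Pnpla8 was at 250 ± 10.3 CPM in adipocytes, above all mice of the other types, which lay between 109 and 132 CPM on average. Cds2 was highest in pericytes (118 ± 8.75 CPM) and endothelial cells (108 ± 8.69 CPM), which overlapped, and lowest in adipocytes (47.1 ± 8.31 CPM). Pla2g6 was highest in lymphatic endothelial cells (15.4 ± 2.91 CPM) and adipocytes (13.9 ± 4.2 CPM) and lowest in pericytes (3.78 ± 1.55 CPM). Pgs1 ranged from 14.7 ± 0.514 CPM in pericytes to 24.7 ± 4.92 CPM in macrophages, and all neighbours in its order overlapped.

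The genes whose levels were most like those of Taz were Hibadh (Pearson r = 0.89), Egf (r = 0.83) and Adra1a (r = 0.82), out of 10454 genes with at least 10 CPM on average. The points were 32 sums, of 8 mice in cardiomyocytes, fibroblasts, endothelial cells and macrophages, which share libraries and depth. Among the members Lclat1 came nearest (r = 0.64, rank 241). The lowest were Prelid1 (r = −0.55, rank 9335), Crls1 (r = −0.55, rank 9360) and Cds2 (r = −0.56, rank 9486). Tamm41 and Pla2g6 did not reach 10 CPM on average and were not compared.

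The genes around the pathway were read from 5 lists of 50 lipid genes, of which 49 were tested in cardiomyocytes. There 3 rose and 5 fell in Taz-KO mice, and 41 did not pass the test. The 8 called are 16.3% of the 49, near the 15.1% of all genes. The phosphatidic acid supply list had 1 higher and 2 lower of 10 tested, other remodelling and breakdown 0 and 2 of 4, and other phospholipid branches 2 and 1 of 14. Lipid transfer to and within mitochondria had 0 called of 11, and the cardiolipin-dependent scaffolds of the inner membrane 0 of 10. The median log2 fold change of the 49 was −0.03, beside −0.01 over all genes. DESeq2 called 10 of the 49 (20.4%, beside 19.4% of all genes), of which 0 were in the transfer list and 1 among the scaffolds, and 2 genes in each of those lists had an unadjusted edgeR p below 0.05, beside 28.5% of all genes. In whole hearts edgeR called 1 of 50, Gpat3 (5.9% of all genes), and DESeq2 called 3 (11.7% of all genes). In fibroblasts, endothelial cells and macrophages edgeR and DESeq2 each called 0 of 47, with 1, 2 and 2 genes at an unadjusted edgeR p below 0.05, beside 9.64%, 7.73% and 6.62% of all genes. Over all genes edgeR called 0.335%, 0.49% and 0.239% in these types and DESeq2 1.95%, 1.79% and 1.21%.

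**Figure D5:**
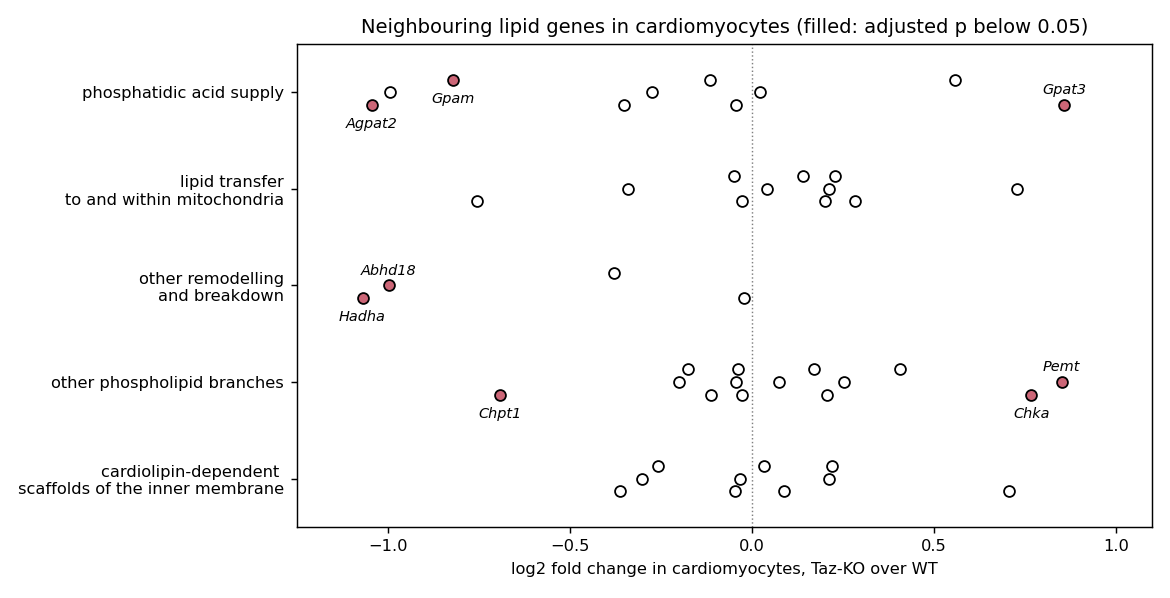
Log2 fold change in cardiomyocytes, Taz-KO over WT (x axis), of the 49 tested genes in 5 lists (rows), filled and named where edgeR's adjusted p was below 0.05. The 8 filled genes are 5 to the left of 0 and 3 to the right, and the lists of lipid transfer and of scaffolds hold none.

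Of the acyltransferases that make phosphatidic acid, Gpat3, an enzyme of the endoplasmic reticulum, rose. It measured 48.6, 51.0, 63.9 and 80.5 CPM in WT and 119, 77.9, 109 and 137 CPM in Taz-KO cardiomyocytes (log2 fold change 0.86, adjusted p = 0.0214). Gpam, the mitochondrial counterpart, fell. It measured 110, 188, 218 and 226 CPM in WT and 114, 111, 88.8 and 107 CPM in Taz-KO cardiomyocytes (log2 fold change −0.82, adjusted p = 0.0310). The genotypes overlapped in both genes, through 1 WT mouse each, replicate 5356 for Gpat3 and replicate 4686 for Gpam. Agpat2, which adds the next acyl chain, fell from 17.4 ± 1.74 to 8.25 ± 2.56 CPM without overlap (log2 fold change −1.04, adjusted p = 0.00936).

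Hadha and Abhd18 fell the most among the genes of remodelling and breakdown. Hadha, the alpha subunit of the mitochondrial trifunctional protein of fatty acid oxidation, was listed here for its monolysocardiolipin acyltransferase activity. It measured 295, 431, 548 and 520 CPM in WT and 163, 280, 215 and 197 CPM in Taz-KO cardiomyocytes (log2 fold change −1.07, adjusted p = 0.0119). Abhd18, a mitochondrial abhydrolase, measured 322, 235, 250 and 269 CPM in WT and 124, 175, 110 and 130 CPM in Taz-KO cardiomyocytes (log2 fold change −0.996, adjusted p = 0.00532). Neither gene overlapped between genotypes in cardiomyocytes.

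In the phosphatidylcholine branch, Chka, the kinase that starts the choline pathway, rose from 46.1 ± 11.9 to 78.5 ± 15.3 CPM (log2 fold change 0.77, adjusted p = 0.0342). Pemt, which methylates phosphatidylethanolamine to phosphatidylcholine, rose from 1.4 ± 0.191 to 2.56 ± 0.454 CPM (log2 fold change 0.85, adjusted p = 0.0381) on 270 WT and 384 Taz-KO UMIs. Chpt1, the cholinephosphotransferase that ends the choline pathway, fell from 417 ± 3.64 to 258 ± 51.0 CPM (log2 fold change −0.69, adjusted p = 0.0276). The calls of Hadha, Abhd18 and Agpat2 held with each mouse left out in turn, and without both small Taz-KO libraries, 4685 and 5301, only that of Agpat2 held among the 8 (adjusted p = 0.0396). That of Gpat3 was lost without WT replicate 4686 (adjusted p = 0.0642) or 4909 (0.0718). That of Chpt1 was lost without WT replicate 4686 (0.0609), 4909 (0.0718) or 5355 (0.0530) or Taz-KO replicate 4685 (0.0617). Those of Chka, Gpam and Pemt were lost in 5, 6 and 7 of 8 such fits, with adjusted p-values of up to 0.106, 0.0791 and 0.107. In whole hearts Gpat3 rose by a log2 fold change of 1.00 (adjusted p = 0.0117), and the other 7 of these genes had adjusted p-values of 0.0724 or higher.

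A list of 8 genes near Taz on the X chromosome was read in the same fits. EdgeR and DESeq2 called 0 of 8 in cardiomyocytes and in whole hearts. There 0 and 1 had an unadjusted edgeR p below 0.05, beside 28.5% and 21.4% of all genes. The shares of all genes called were 15.1% and 19.4% in cardiomyocytes and 5.9% and 11.7% in whole hearts, at which a list of 8 may hold 0 or few called genes. In the other 8 cell types edgeR called none of the 5 to 8 tested (0% to 0.49% of all genes), and DESeq2 called 1, in mesothelial cells (0.562% of all genes). At an unadjusted edgeR p below 0.05 there were 2 of 5 in adipocytes (7.17% of all genes) and 2 of 7 in mesothelial cells (7.28%). There was 1 each in endothelial cells (7.73%), macrophages (6.62%), lymphatic endothelial cells (5.53%) and smooth muscle cells (3.16%). Fibroblasts (9.64%) and pericytes (4.79%) had 0. The median log2 fold change of the list was highest in lymphatic endothelial cells (0.46, with 7 of 7 fitted higher) and adipocytes (0.45), beside 0.01 and 0.00 over all genes. All tested genes of the list were also fitted higher in macrophages (8 of 8, median 0.17) and pericytes (7 of 7, median 0.11). In each of the other sets some were fitted lower. Genotypes did not overlap for 3 of 5 in adipocytes (8.47% of all genes), where 3 list genes were filtered out and only 3 Taz-KO mice entered. They did not overlap for 2 of 7 in lymphatic endothelial cells (4.06% of all genes) and 1 of 7 in mesothelial cells (4.85%), and for 0 in the other sets. Dnase1l1, which overlaps the start of Taz on the other strand, had a log2 fold change of −0.18 in cardiomyocytes (adjusted p = 0.617). Rpl10, a ribosomal protein gene, had the lowest adjusted p of the 8 there, 0.236 at a log2 fold change of 0.77.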

How the data were processed

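The deposited files hold raw UMI counts per gene and barcode for each library, made by the authors with Cell Ranger 6.0.1 on mm10 with intronic reads included. The ambient correction and doublet removal of the study are not part of these counts. Nuclei had to reach 800 UMIs and 250 genes, simulated-doublet scores removed about 10% or less of each library, and nuclei were clustered (2000 variable genes without the members, the lists or mitochondrial genes, 15 principal components, 20 neighbours, Leiden resolution 0.9). Clusters were named from marker lists by a rule revised after marker scores were seen and before genotype results of the members were computed. Counts were summed per mouse without mitochondrially encoded genes. Types with at least 10 nuclei per mouse in at least 3 mice per genotype were tested.

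Genotypes were compared with edgeR 4.0.16 quasi-likelihood tests (filterByExpr, TMM, Benjamini-Hochberg over all genes tested, threshold 0.05) in R 4.3.3, with DESeq2 1.42.0 as an alternative. Standard errors and 95% intervals were derived from the F statistic. CPM in these comparisons is scaled by TMM factors within a set, and CPM across cell types is plain. Scripts were tested on simulated data. Clustering used Python 3.11.15, scikit-learn 1.9.0 and python-igraph 0.11.9. The permutation tests used a pseudocount of 1 CPM.

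The members and gene lists were chosen with earlier results of these data known, and the motifs and the promoters shown were chosen after the members' values were seen. The named genes were all members, up to 8 called list genes in cardiomyocytes by size of fold change, and the 3 genes most correlated with Taz. The p-values weigh a genotype difference against the spread between these mice. Total counts per library limit the precision of each mouse's value, beside the variation between mice, and 2 Taz-KO libraries were small.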

Additional observations from a re-analysis of the deposited data

Results flagged for a closer look

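Of 100 groups of 4 mice examined, 5 held a mouse far from the other 3 by Dixon's criterion, which chance alone gives in about 1 group in 20. In whole hearts Cds2 was 60.0 CPM in Taz-KO replicate 5301, against 78.5 to 81.5 CPM in the other Taz-KO mice. WT replicate 5356 gave the other 4. Prelid1 was 9.49 CPM there in whole hearts, against 16.1 to 17.0 CPM in the other WT mice, and 10.5 CPM in fibroblasts, against 21.2 to 23.3 CPM. Crls1 was 14.8 CPM in its macrophages, against 19.8 to 20.8 CPM, and Pla2g6 was 6.86 CPM in its cardiomyocytes, against 5.64 to 5.68 CPM. These values are TMM-scaled, and the factor of WT replicate 5356 in cardiomyocytes was 0.844. On plain CPM Pla2g6 ran only from 5.47 to 5.78 CPM in the cardiomyocytes of WT mice, this mouse included. No cause was tested.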

How the results depend on the processing

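Across the alternatives run, Taz kept its lower level in Taz-KO mice in whole hearts (14 alternatives) and cardiomyocytes (17), from −0.82 to −0.59 and from −0.80 to −0.50. In whole hearts its call was lost without Taz-KO libraries 4685 and 5301 (−0.68, adjusted p = 0.0887, 0 members called), and with 1 mouse left out the value ran from −0.82 to −0.59 and the members called from 0 to 1. In cardiomyocytes the call was lost with an ambient share subtracted (−0.59), and with 1 mouse left out the value ran from −0.73 to −0.50. The members called there were 2 with DESeq2 size factors, with no filter on low counts, with DESeq2 and with mitochondrial genes kept. DESeq2 called 1 member, Taz, in endothelial cells (−1.06) and macrophages (−0.94). The Taz change in cardiomyocytes minus fibroblasts turned positive without Taz-KO libraries 4685 and 5301 (0.0327) and with nuclei typed by their own markers (0.88), and ran from −0.17 to 0.13 with 1 mouse left out. Minus macrophages it was −0.13 with nuclei typed by their own markers, and minus endothelial cells it fell from 0.51 to 0.0215 with those nuclei and to 0.15 without libraries 4685 and 5301. With TMM factors, an alternative chosen after seeing the data, the 3 differences kept their signs.

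Small fitted values changed sign. In whole hearts, Tamm41 was −0.000674, −0.0202, −0.0104 and −0.0762 with DESeq2 size factors, no filter, DESeq2 and without libraries 4685 and 5301, and ran from −0.039 to 0.0433 with 1 mouse left out. Pnpla8 was −0.000576, −0.0213 and −0.000495 with the first 3 of these and ran from −0.0925 to 0.0782. Prelid1 ran from −0.0957 to 0.627. In cardiomyocytes, Ptpmt1 was −0.00505, −0.0234, −0.0114 and −0.0625 with those 4 alternatives and −0.0367 with the ambient share subtracted, and ran from −0.0324 to 0.0647. Prelid1 was −0.0142 with no filter, −0.00386 at resolution 0.5, −0.0288 with nuclei typed by their own markers and −0.0963 with the ambient share subtracted, and ran from −0.143 to 0.224. Pla2g6 was 0.11 with nuclei typed by their own markers, and Pnpla8 ran from −0.0518 to 0.164. The causes were not tested.

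Without libraries 4685 and 5301, 7 of the 8 named lipid genes were no longer called: Hadha (adjusted p = 0.104), Abhd18 (0.0612), Gpat3 (0.124), Pemt (0.0865), Gpam (0.102), Chka (0.194) and Chpt1 (0.0969). No paired analysis was possible because the genotypes share no replicate numbers, and the labels do not say that neighbouring mouse numbers mark a litter, batch or day. The small libraries leave few UMIs for rare types.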
